A study of Mus musculus with 18 samples.

Results

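RNA of the nuclear receptor superfamily was followed in a mouse brown adipocyte line stimulated in ways that do or do not release fatty acids. The members were 38 genes of nuclear receptors, taken by symbol from a count table of 17672 genes. The NR4A receptors, Rev-erb alpha and beta and ROR alpha were left out of the family and are given only for reference. The cells were immortalised brown preadipocytes differentiated in culture. All of them carried a stable lentiviral shRNA against Abhd5, the activator of the triglyceride lipase ATGL, and a doxycycline (Dox)-inducible, shRNA-resistant ABHD5 tagged with mCherry. Cells without Dox were thus in the knockdown state and cells given Dox at 1 µg/ml in the rescued state. In each state the cells received the vehicle DMSO, the β-adrenergic agonist isoproterenol (ISO, 10 nM) or SR-3420 (20 µM), a synthetic ligand that frees ABHD5 to activate lipolysis, for 3 h. These 6 groups had 3 replicates each, 18 libraries in all. The methods describe them as independent experiments. The differentiation medium held dexamethasone, thyroid hormone T3 and indomethacin, which are ligands of the glucocorticoid, thyroid hormone and PPARγ receptors. None of the groups lacked the knockdown, and an effect of Dox itself cannot be told apart from that of the restored ABHD5. Whether the line is a single clone is not given in the sources used here.

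Nuclear receptors are transcription factors that many lipophilic molecules switch on directly. Most of them hold a DNA-binding domain and a ligand-binding domain, and ligand binding exchanges corepressors for coactivators. PPARs, oxysterol, vitamin D, thyroid hormone and retinoic acid receptors bind DNA as heterodimers with a retinoid X receptor (RXR), steroid receptors bind mostly as homodimers, and many orphan receptors have no known physiological ligand. In brown adipocytes PPARγ is the master regulator of adipocyte differentiation, fatty acids can act as PPAR ligands, thyroid hormone and its receptors take part in Ucp1 induction, and estrogen-related receptors drive mitochondrial genes together with the PGC-1 coactivators.

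Promoter sequence was read first, because the members below moved in opposite directions and a reader may wish to see what lies upstream of them. The 1000 bases before each deposited gene start were searched on both strands of mm9 for the full cAMP response element (TGACGTCA), the element bound by estrogen-related receptors (TCAAGGTCA), the DR1 direct repeat bound by PPAR-RXR and related dimers (AGGTCA, any base, AGGTCA) and a GC box (GGGGCGGGG). The estrogen-related receptor element and the direct repeat share the letters AGGTCA, so a stretch can match both. The cAMP response element was found upstream of none of the 38 members, against 2.99% of the 17672 genes, and the direct repeat of none, against 0.13%. The estrogen-related receptor element was found upstream of 3 members, against 2.68% of all genes, and the GC box upstream of 11 members, against 22.5%. A match is a string of letters and not a measured binding site, and no match says only that these letters are not in the window. The 3 estrogen-related receptor elements are shown, in capitals with 30 bases on each side, since they lie upstream of a gene that ISO raised (Esrra) and of genes that fell (Rara and Thra). The 250 bases before the start of Vdr, the member with the smallest p under ISO, follow with their GC boxes in capitals. All are on mm9 and run in the direction of the gene.
Esrra (chr19:6996797-6996865, minus strand): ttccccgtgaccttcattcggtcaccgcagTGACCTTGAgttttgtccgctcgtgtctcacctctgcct
Rara (chr11:98798424-98798492, plus strand): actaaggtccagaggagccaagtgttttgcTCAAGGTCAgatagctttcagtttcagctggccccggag
Thra (chr11:98602637-98602705, plus strand): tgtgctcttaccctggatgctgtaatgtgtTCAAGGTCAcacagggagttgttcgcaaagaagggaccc
Vdr (chr15:97738728-97738977, minus strand): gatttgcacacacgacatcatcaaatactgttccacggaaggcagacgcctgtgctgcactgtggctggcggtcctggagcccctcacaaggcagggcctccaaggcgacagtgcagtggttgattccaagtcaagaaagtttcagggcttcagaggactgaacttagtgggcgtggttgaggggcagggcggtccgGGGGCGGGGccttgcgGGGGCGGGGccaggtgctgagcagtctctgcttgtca
The elements begin 537 bases upstream of the start in Esrra, where the element is on the opposite strand, 556 in Rara and 520 in Thra. The GC boxes of Vdr begin 53 and 37 bases upstream.

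The methods name a gene-level count, but the counted length lay within 10% of the annotated intron length for 72.65% of 16439 matched genes, against 21.1% for the whole gene span and 2.275% for exon length. Lengths of this kind would make the counts reads of unspliced RNA. The rise of Abhd5 below goes against that for at least 1 gene, since the rescue is a construct recoded for the same protein, in which introns would not be expected. How far the counts hold spliced RNA is therefore not settled, and where they do, levels per kilobase of counted length are too high, most of all for genes of short counted length. Library totals ranged from 689910 to 1956565 counts, and normalised values are CPM, counts scaled to a common library total after TMM adjustment. Abhd5, the targeted gene, lay between 47.2 and 55.8 CPM in DMSO without Dox and between 484 and 656 CPM in DMSO with Dox, in the direction of the labels (log2 fold change 3.46, edgeR quasi-likelihood adjusted p 2.44e-14). A knockdown itself cannot be checked here, since every group carried it. Abhd5 also moved with ISO: without Dox it lay between 130 and 173 CPM (log2 fold change 1.5, adjusted p 3.34e-07) and with Dox between 808 and 859 CPM (0.52, adjusted p 0.00502), responses that differed by -0.98 (adjusted p 0.0194), so cells given ISO without Dox had more Abhd5 counts than their control. Summed over the 8 listed adipocyte markers in the table, which include Adipoq, Plin1 and Lpl, values were between 2470 and 5652 CPM in all libraries. Replicate 1 of SR-3420 with Dox stood apart in that its 10 highest genes held 35.6% of its counts.

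Of the 38 members, 23 had enough counts to test, a share of 60.5%, against 57.6% of all genes in the table. Levels per library were highest for Rarb (509 CPM on average over the 18 libraries), Esr2 (488) and Pparg (361), genes of long counted length, followed by Nr1h3 (187), Esrra (145) and Nr2f2 (125). Levels between genes were compared as CPM per kilobase of counted length, with the limit on that length given above. In the 6 DMSO libraries the highest levels on this scale were those of the orphan receptor COUP-TFII (Nr2f2, 28.3 ± 7.47 CPM per kb, SD, n = 6), LXRβ (Nr1h2, 23.7 ± 5.50), ERRα (Esrra, 22.9 ± 2.65), LXRα (Nr1h3, 21.3 ± 1.31), EAR2 (Nr2f6, 18.3 ± 3.03) and RXRβ (Rxrb, 15.3 ± 2.51), all with counted lengths of 1629 to 9020 bases, so this order rests on that length. Each neighbouring pair among these 6 genes overlapped in its range over the 6 libraries, so the order of neighbours is not resolved, although Rxrb lay wholly below Nr2f2, Esrra and Nr1h3, and Nr2f2 wholly above Nr1h3 and Nr2f6. Esr2 followed at 9.42 ± 0.84 and the next group was lower: Thra stood at 5.56 ± 0.85, Rara at 3.48 ± 0.63, Rarg at 2.83 ± 0.34, Nr2f1 at 2.54 ± 0.71 and Pparg at 2.43 ± 0.43 CPM per kb. Pparg covers 125551 counted bases. Vdr (0.59 ± 0.20), Rxra (0.54 ± 0.13), the glucocorticoid receptor gene Nr3c1 (0.31 ± 0.09) and Ppara (0.25 ± 0.12) were below 1 CPM per kb in DMSO. Rxrg (0.10 ± 0.05) and Rorb (0.015 ± 0.0085) were the lowest of the members tested.

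**Figure D1:**
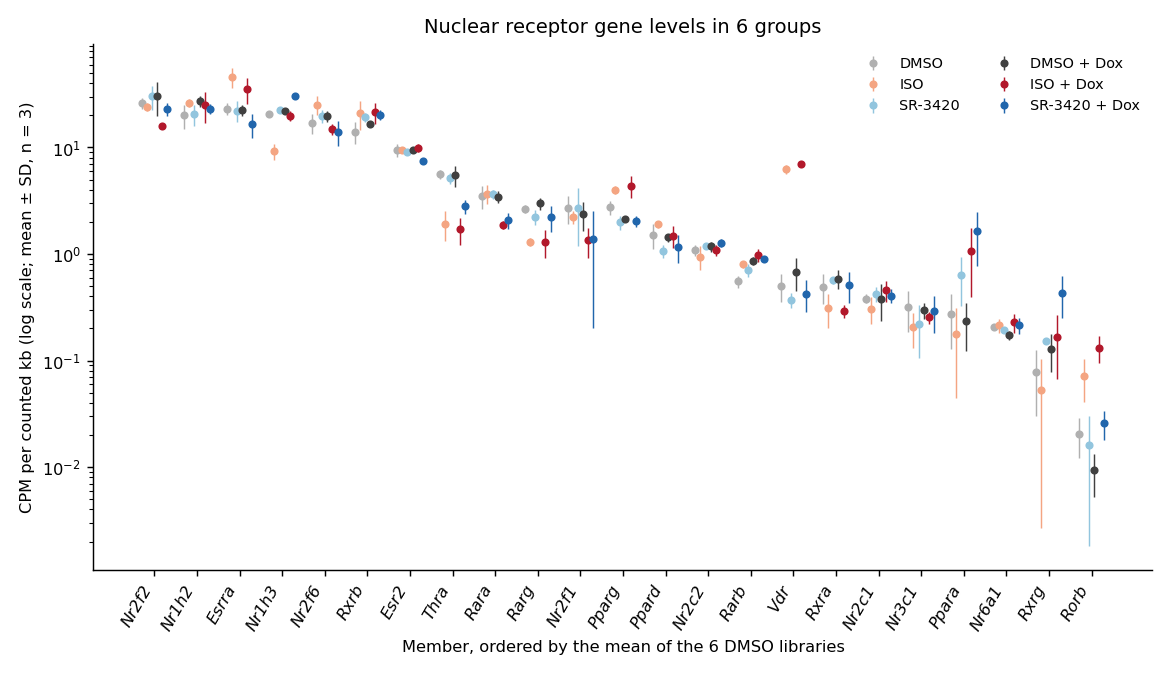
Level of the 23 tested members in the 6 groups, as CPM per counted kilobase on a log axis (points are means of 3 libraries, bars ± SD; a lower bar that would pass 0 is shortened to end above it). Vdr leaves its place in the order in both ISO groups, reaching 6.24 CPM per kb with ISO without Dox, while Nr2f2, Nr1h2 and Rxrb stay near the top in all 6 groups.

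Some members overlap other genes or hold copies of them. The span of Nr2f6 is overlapped over 66.9% by Ocel1 on the other strand, and no source used here states a stranded count. Esr2, the gene of estrogen receptor β, had 9.42 ± 0.84 CPM per kb in the 6 DMSO libraries. It holds an annotated pseudogene of 292 bases, and a search with coding sequences found all 291 coding bases of Hmgn1 inside it at 97.9% identity. Rarb likewise holds a copy of all 471 coding bases of the ribosomal protein gene Rpl23a at 95.8% identity, and of 99.8% of the 1800 coding bases of Abce1 at 90.3% identity. Whether spliced reads of Hmgn1, Rpl23a or Abce1 add to the counts of Esr2 and Rarb was not tested. The counted lengths of Nr1h2 (1686 bases) and Rxrb (3428 bases) exceed their annotated intron lengths of 984 and 2894 bases.

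The other 15 members were too low to test. Esr1, of estrogen receptor α, had at most 11 counts in a library, Esrrg 10, the mineralocorticoid receptor gene Nr3c2 6, Thrb 5, Hnf4g 4, and Nr1i2, Nr5a2 and Esrrb 3. The bile acid receptor gene Nr1h4 and Nr2e3 had at most 2 counts, and Hnf4a, the progesterone receptor gene Pgr and Nr5a1 at most 1. Nr1i3 and Nr0b2 had 0 counts in all 18 libraries, which allows up to 0.139 CPM over all libraries together (3 counts, counting error only). Nr1i3 is overlapped by Tomm40l on the other strand. These values say that the genes were not detectable or nearly so at this depth.

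Across the 4 comparisons with DMSO, 13 of the 23 tested members passed an adjusted p of 0.05 in at least 1, a share of 56.5% against 45.5% of all genes. Without Dox, ISO changed 8 members, 5 higher and 3 lower (34.8% of those tested, against 28% of all 10178 genes tested, 14.5% higher and 13.5% lower). With Dox, ISO changed 10, 5 higher and 5 lower (43.5%, against 32.5% of all genes, 16.4% higher and 16.1% lower). SR-3420 without Dox changed 0 members at an adjusted p of 0.05 in edgeR (background 0.766%, 0.698% higher and 0.0688% lower), with 5 members at an unadjusted p under 0.05. DESeq2 and limma-voom also called 0, while 1 was called when genes of low count were kept and 2 with the replicate block (Ppara, 1.24, adjusted p 0.0056, and Pparg, -0.47, adjusted p 0.0141). Of all genes, 0.953%, 0.658%, 0.983% and 2.34% were called in these alternatives, in the same order. With Dox, SR-3420 changed 5 members, 3 higher and 2 lower (21.7%, against 9.9% of all genes, 6.53% higher and 3.37% lower). Dox alone changed 1 member in DMSO (background 1.18%, 1.09% higher and 0.0884% lower), Rarb. The SR-3420 response differed between the states for 0 members in edgeR, DESeq2 and limma-voom (4 at an unadjusted p under 0.05, background 0.757%), for 2 without a filter on low counts (Ppara and Thra) and for 3 with the replicate block (Ppara, Thra and Rara). For this difference 0.977% of all genes were called without the filter and 3.33% with the block. Of the members called, 6 passed with ISO in both states, Vdr, Pparg, Thra, Rarg, Rorb and Esrra, all in the same direction (26.1% of those tested, against 17.1% of all genes). With a further limit of at least 2-fold, 5 members remained with ISO without Dox (10.9% of all genes), 6 with ISO and Dox (13.1%) and 2 with SR-3420 and Dox (3.1%). The ISO and SR-3420 comparisons of a state share their DMSO libraries, so their calls are given side by side. Among the 23 are Rorb and Rxrg, which reached the minimum count (8.73 CPM in 3 libraries) through 5 ISO libraries for Rorb, and through 2 libraries of SR-3420 with Dox and 1 of ISO with Dox for Rxrg, so that each could be tested only because it was high there. Without them and the 480 other genes that would have missed the minimum without the libraries of 1 treatment, a count added after the values were seen, ISO changed 7 of 21 members without Dox (33.3%, against 28.3% of 9696 genes) and 9 with Dox (42.9%, against 32.9%), SR-3420 with Dox changed 4 (19%, against 10.2%), 5 passed with ISO in both states (23.8%, against 17.4%) and 11 in at least 1 of the 4 comparisons (52.4%, against 45.9%). The members are few and no test was made of these shares. The members' median log2 fold changes, 0.01 and 0.05 for ISO without and with Dox and -0.18 for SR-3420 with Dox, stood beside -0.01, -0.02 and -0.02 for all genes. With library totals in place of TMM, the median of all genes moved by -0.18, -0.14 and -0.19 in these 3 comparisons, the members called became 3 higher and 4 lower, 4 higher and 5 lower, and 2 higher and 4 lower, and the share of all called genes that were higher went from 51.7% to 30.2%, from 50.4% to 34.7% and from 66% to 31.5%. Of all genes, 27.3%, 31.4% and 10.1% were called with library totals.

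**Figure D2:**
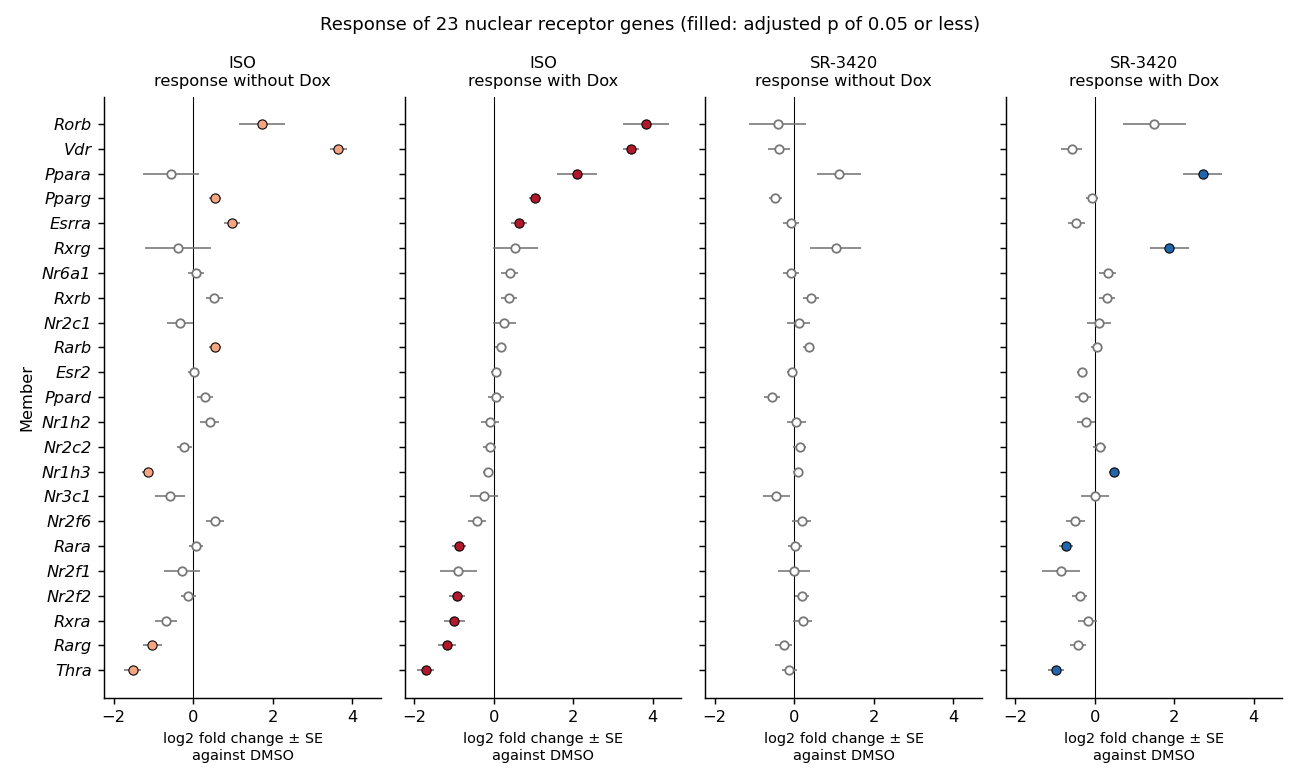
Log2 fold change of the 23 tested members in each comparison with DMSO (points, with SE as bars; filled points pass an adjusted p of 0.05, open points do not). Vdr and Rorb lie far to the right in both ISO panels, Ppara and Rxrg in the panel of SR-3420 with Dox, and no point is filled for SR-3420 without Dox.

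Vdr encodes the vitamin D receptor (chromosome 15, 97684858 to 97738727, minus strand of mm9) and had the smallest p of all members with ISO. Its values in DMSO were 15.1, 25.8 and 27.4 CPM without Dox and 19.7, 32.3 and 40.45 CPM with Dox. ISO brought them to 311, 285.5 and 254.5 CPM without Dox and to 318.5, 327 and 305 CPM with Dox. Every ISO library was thus several times above every DMSO library, in both states. The log2 fold change was 3.66 (SE 0.21, edgeR adjusted p 1.69e-13) without Dox and 3.46 (SE 0.20, adjusted p 1.60e-13) with Dox. The difference between the states was -0.20 (95% interval -0.84 to 0.44, adjusted p 0.833), which did not pass. With SR-3420, Vdr had 16.8, 19.75 and 14.1 CPM without Dox and 13.2, 18.9 and 25.97 CPM with Dox, within or below the range of DMSO. Its log2 fold change with SR-3420 and Dox was -0.58 (95% interval -1.14 to -0.02 per gene, adjusted p 0.195), and it passed only when replicate 1 of DMSO with Dox was left out (-0.92, adjusted p 0.0388).

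**Figure D3:**
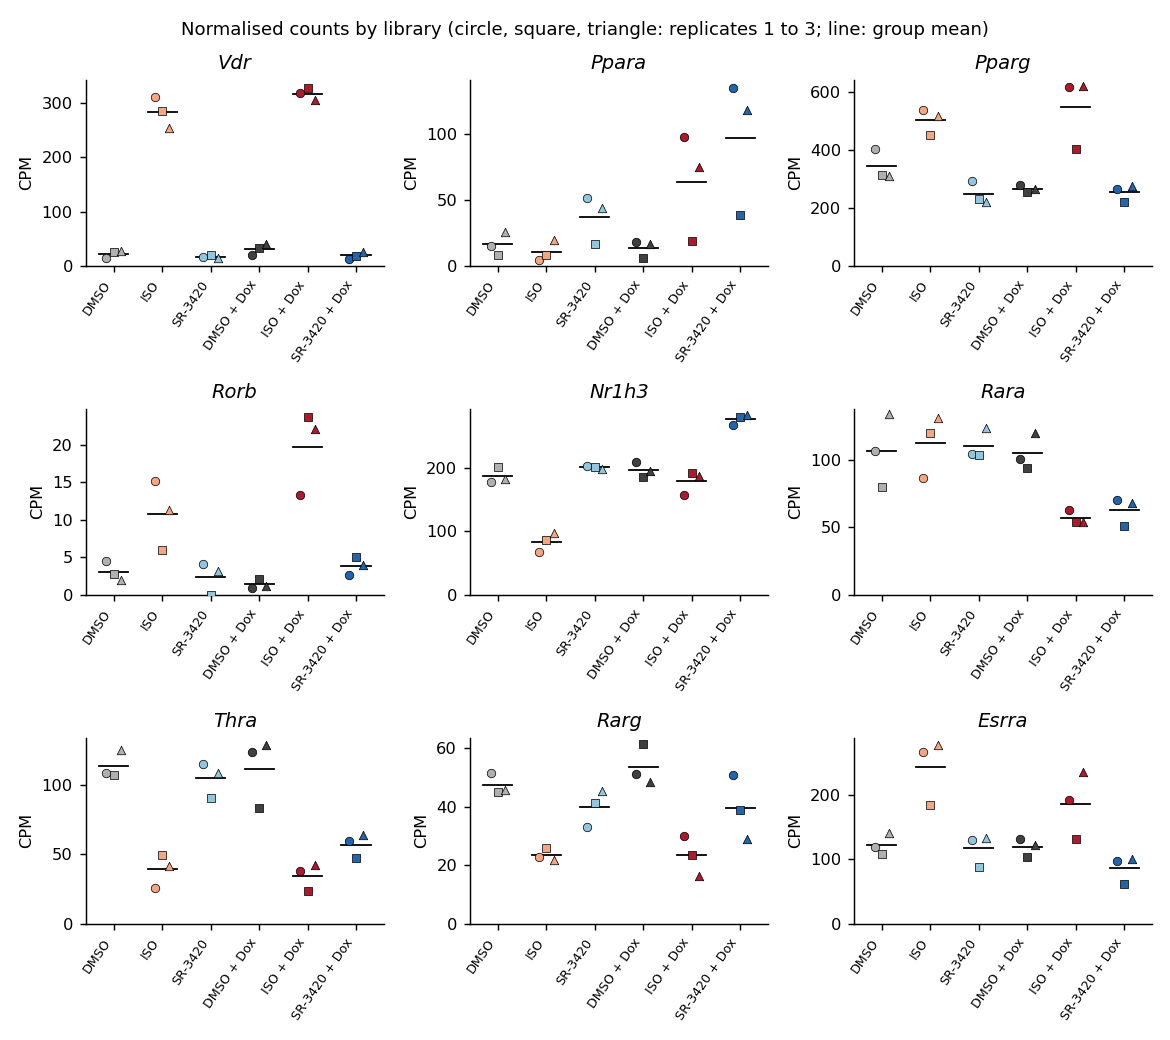
CPM in every library for 9 members, by group (circles, squares and triangles are replicates 1 to 3, lines are group means of n = 3, and each axis starts at 0). Vdr is high in both ISO groups only, Ppara is highest with SR-3420 and Dox, Nr1h3 is lowest with ISO without Dox, and Rara is lowest with either stimulus and Dox.

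PPARα, encoded by Ppara (chromosome 15, 85565994 to 85637281, plus strand), is a fatty acid receptor that drives genes of fatty acid oxidation. It had 15.1, 8.16 and 25.4 CPM in DMSO, 4.32, 7.93 and 19.5 with ISO and 51.1, 16.8 and 43.9 with SR-3420 in cells without Dox. In cells with Dox it had 18.3, 6.25 and 16.85 CPM in DMSO, 97.5, 18.9 and 75.1 with ISO and 134.5, 38.8 and 118 with SR-3420. The groups with Dox did not overlap with their DMSO control, although the lowest ISO library lay only just above it, and replicate 2 was the lowest of its group in 5 of the 6 groups. Ppara rose with Dox by 2.10 on the log2 scale under ISO (SE 0.51, edgeR adjusted p 0.00214) and by 2.72 under SR-3420 (SE 0.49, adjusted p 0.000326), and both calls held when any library was left out. Without Dox the changes were -0.55 under ISO (95% interval -1.99 to 0.89, adjusted p 0.605) and 1.14 under SR-3420 (adjusted p 0.56). The latter passed without a filter on low counts (1.17, adjusted p 0.00162) and in a fit that blocks on replicate number (1.24, adjusted p 0.0056). The difference in the ISO response between the states was 2.64 (95% interval 0.85 to 4.44 per gene), which did not pass the adjusted threshold (adjusted p 0.114) but did without ISO with Dox replicate 2 (3.12, adjusted p 0.0165), without a filter on low counts (2.64, adjusted p 1.21e-07) and with the replicate block (2.65, adjusted p 9.97e-05). The difference in the SR-3420 response, 1.59 (adjusted p 0.418), likewise passed without the filter (1.54, adjusted p 0.00703) and with the block (1.56, adjusted p 0.0167).

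PPARγ, encoded by Pparg (chromosome 6, 115311239 to 115440419, plus strand), rose with ISO in both states and passed in neither comparison of SR-3420 with DMSO. It had 404, 316 and 312.5 CPM in DMSO and 540, 452 and 519 CPM with ISO in cells without Dox, and 278, 254 and 265 CPM in DMSO and 620, 406 and 624 CPM with ISO in cells with Dox. The ISO libraries were above all DMSO libraries of the same state. It rose by 0.55 without Dox (SE 0.16, edgeR adjusted p 0.00987) and by 1.04 with Dox (SE 0.16, adjusted p 7.22e-06). The first of these did not pass without DMSO replicate 3 (0.48, adjusted p 0.0606) or with library totals (0.38, adjusted p 0.113). SR-3420 gave 293, 231 and 220.5 CPM without Dox, all below DMSO (-0.47, 95% interval -0.80 to -0.15 per gene, adjusted p 0.254; with the replicate block -0.47, adjusted p 0.0141), and 265, 222 and 276 CPM with Dox. With SR-3420 and Dox the change was -0.07 (95% interval -0.40 to 0.26, adjusted p 0.857). Ppard, of the broadly expressed PPARδ, had between 44.7 and 112 CPM in all libraries and passed in none of the 8 contrasts.

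The RXR genes, whose products are the partners of these receptors, did not move together. Rxra (chromosome 2, 27532721 to 27618839, plus strand) had 41.4, 41.6 and 57.3 CPM in DMSO and 22.5, 20.5 and 26.95 CPM with ISO in cells with Dox, without overlap, and fell by 0.99 (SE 0.26, edgeR adjusted p 0.00387). Without Dox it had 29.4, 35.4 and 52.8 CPM in DMSO and 21.6, 34.7 and 18.01 CPM with ISO, groups that overlap (-0.68, adjusted p 0.0639), and passed without DMSO replicate 1 (-0.88, adjusted p 0.0315) or ISO replicate 2 (-0.99, adjusted p 0.0163), with library totals (-0.86, adjusted p 0.0217), without a filter on low counts (-0.66, adjusted p 0.0483) and with the replicate block (-0.70, adjusted p 0.0307). SR-3420 libraries held 49.35, 43.6 and 43.15 CPM of Rxra without Dox and 30.8, 55.7 and 35.95 CPM with Dox. Rxrg (chromosome 1, 169528493 to 169569754, plus strand) was scarce, with 6, 5 and 6 counts in DMSO with Dox and 11, 24 and 17 counts with SR-3420 and Dox. In CPM these were 2.89, 5.205 and 6.74 against 9.67, 23.9 and 17.0. It rose by 1.88 (SE 0.49, edgeR adjusted p 0.0112), and the ratio of the summed counts was 3.82 (95% counting interval 2.17 to 7.05). Rxrg was tested only because SR-3420 with Dox, the group in which it was called higher, supplied 2 of the 3 libraries above the minimum count. This call was lost without DMSO with Dox replicate 1 (1.47, adjusted p 0.121) or SR-3420 with Dox replicate 2 (1.55, adjusted p 0.0823). In the other groups Rxrg had between 0 and 13 counts per library. Rxrb had between 35.4 and 96.2 CPM and passed in no contrast, although its libraries with ISO without Dox (96.2, 55.5 and 63.8 CPM against 55.2, 35.4 and 53.8; 0.54, adjusted p 0.0541) and with SR-3420 in both states (0.43, adjusted p 0.543 without and 0.30, adjusted p 0.388 with Dox) lay above all DMSO libraries of the same state.

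LXRα and LXRβ are oxysterol receptors that control cholesterol export and lipogenesis. Nr1h3, the gene of LXRα (chromosome 2, 91024218 to 91035273, minus strand), had 178, 201 and 183 CPM in DMSO and 68.1, 86.25 and 96.8 CPM with ISO in cells without Dox. It fell by 1.14 (SE 0.14, edgeR adjusted p 4.03e-07). In cells with Dox it had 209, 186 and 194 CPM in DMSO, 158, 191 and 187 CPM with ISO and 267, 280 and 283 CPM with SR-3420. The ISO and DMSO libraries with Dox overlapped (-0.14, 95% interval -0.41 to 0.12, adjusted p 0.416), whereas the SR-3420 libraries lay above both and Nr1h3 rose by 0.49 (SE 0.13, edgeR adjusted p 0.0106), a call lost with library totals (0.31, adjusted p 0.205). SR-3420 without Dox gave 203, 202 and 198 CPM. The ISO response differed between the states by 1.00 (SE 0.19, edgeR adjusted p 0.00322), one of 2 such differences among the members, against a background of 2.18% of all genes (1.61% higher and 0.57% lower). Nr1h2, of LXRβ, had between 27.9 and 57.5 CPM and passed in no contrast.

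Among the hormone and vitamin A receptors, Thra fell most. Thra encodes thyroid hormone receptor α (chromosome 11, 98603187 to 98626425, plus strand). It had 109, 107.5 and 126 CPM in DMSO, 25.9, 49.6 and 42.0 with ISO and 115.5, 90.6 and 109 with SR-3420 in cells without Dox. With Dox it had 124, 83.3 and 129 CPM in DMSO, 38.35, 23.6 and 42.35 with ISO and 59.8, 47.7 and 63.9 with SR-3420. Only SR-3420 without Dox overlapped with its control. Thra fell by 1.52 with ISO without Dox (SE 0.21, edgeR adjusted p 2.99e-06), by 1.71 with ISO and Dox (SE 0.21, adjusted p 2.64e-07) and by 0.98 with SR-3420 and Dox (SE 0.20, adjusted p 0.00114), and these held when any library was left out. The change with SR-3420 without Dox was -0.12 (95% interval -0.49 to 0.25). The difference between the SR-3420 responses of the states, -0.86 (95% interval -1.41 to -0.31 per gene), did not pass (adjusted p 0.141), although it did without a filter on low counts (-0.90, adjusted p 0.0269) and with the replicate block (-0.88, adjusted p 0.0141), with which Rara, below, also passed (-0.76, adjusted p 0.0229).

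Rara and Rarg encode the retinoic acid receptors α and γ. Rara (chromosome 11, 98799010 to 98836256, plus strand) had 107, 80.3 and 134 CPM in DMSO, 86.45, 120 and 131 with ISO and 104.5, 103 and 124 with SR-3420 without Dox, groups that all overlap. With Dox it had 101, 93.7 and 120 CPM in DMSO, 62.5, 54.35 and 53.9 with ISO and 70.3, 50.7 and 67.9 with SR-3420, both below all DMSO libraries. With Dox it fell by 0.87 with ISO (SE 0.18, edgeR adjusted p 0.00051) and by 0.72 with SR-3420 (SE 0.18, adjusted p 0.00943). The SR-3420 call was lost without DMSO with Dox replicate 3 (-0.64, adjusted p 0.0509) or SR-3420 with Dox replicate 2 (-0.58, adjusted p 0.0687). The ISO response differed between the states by -0.94 (SE 0.25, edgeR adjusted p 0.0432), a call lost on leaving out any of 9 of the 12 libraries concerned, with adjusted p up to 0.132. Of these fits it was kept only without ISO replicate 1, DMSO replicate 3 or DMSO with Dox replicate 2. The call was also lost with library totals (-0.89, adjusted p 0.0902), limma-voom (-0.94, adjusted p 0.0561) and the contrast's own groups (-0.93, adjusted p 0.0564). Rarg (chromosome 15, 102065369 to 102087953, minus strand) fell with ISO in both states. It had 51.6, 44.9 and 45.65 CPM in DMSO and 22.7, 25.8 and 21.8 with ISO without Dox, and 51.0, 61.4 and 48.3 in DMSO and 30.01, 23.6 and 16.4 with ISO and Dox. The log2 fold changes were -1.03 (SE 0.24, adjusted p 0.00162) and -1.18 (SE 0.22, adjusted p 0.000153). With SR-3420 Rarg had 33.1, 41.2 and 45.5 CPM without Dox and 51.0, 38.8 and 29.0 CPM with Dox, overlapping with DMSO.

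Rarb, of retinoic acid receptor β (chromosome 14, 17263354 to 17914845, minus strand), was the only member that Dox changed. It had 319, 403 and 333 CPM in DMSO without Dox and 507, 593 and 547 CPM in DMSO with Dox, without overlap, a rise of 0.65 (SE 0.14, edgeR adjusted p 0.0113). That call was lost without DMSO replicate 1 (0.57, adjusted p 0.143) or 3 (0.61, adjusted p 0.0939) or DMSO with Dox replicate 2 (0.59, adjusted p 0.0803), and with library totals (0.55, adjusted p 0.154). ISO without Dox gave 494, 487 and 556 CPM, a rise of 0.55 (SE 0.14, adjusted p 0.00477) that did not pass with library totals (0.38, adjusted p 0.0933). With ISO and Dox it had 526, 701 and 636 CPM. With SR-3420 it had 395, 444 and 517 CPM without Dox and 542, 579 and 588 CPM with Dox.

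Rorb, of the retinoic acid-related orphan receptor β best known from the nervous system, was near the limit of detection before ISO (chromosome 19, 19005099 to 19185686, minus strand). It had 5, 2 and 2 counts in DMSO and 14, 6 and 15 with ISO without Dox, and 2, 2 and 1 counts in DMSO and 16, 30 and 23 with ISO and Dox. In CPM the groups with Dox were 0.96, 2.08 and 1.12 against 13.3, 23.6 and 22.1. The ratio of summed counts with Dox was 15.5 (95% counting interval 6.31 to 49.1), and without Dox 3.39 (1.60 to 8.01). The fitted log2 fold changes were 3.83 with Dox (SE 0.58, edgeR adjusted p 6.61e-06), which held when any library was left out, and 1.73 without Dox (SE 0.58, adjusted p 0.0255). The latter was lost without DMSO replicate 2 (adjusted p 0.0616) or 3 (0.109), or ISO replicate 1 (0.114) or 3 (0.0642), and with limma-voom (1.58, adjusted p 0.0732). All 5 Rorb libraries above the minimum count were ISO libraries, so Rorb was tested only because it was high with ISO. SR-3420 gave at most 7 counts in a library.

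Estrogen-related receptor α is an orphan receptor that acts with PGC-1α on genes of oxidative phosphorylation. Its gene Esrra (chromosome 19, 6985467 to 6996298, minus strand) had 118, 107.5 and 140 CPM in DMSO and 266, 184 and 278 with ISO without Dox. With Dox it had 131, 103 and 121 CPM in DMSO, 192, 131.5 and 235 with ISO and 97.55, 61.6 and 99.9 with SR-3420. ISO libraries were above DMSO in both states, and SR-3420 libraries with Dox were below. Esrra rose by 0.99 with ISO without Dox (SE 0.20, edgeR adjusted p 0.000445) and by 0.63 with ISO and Dox (SE 0.20, adjusted p 0.0151). The latter was lost without DMSO with Dox replicate 2 (0.55, adjusted p 0.0624) or ISO with Dox replicate 3 (0.46, adjusted p 0.113), and with library totals (0.50, adjusted p 0.0634). The change with SR-3420 and Dox was -0.46 (95% interval -0.90 to -0.03 per gene), which did not pass (adjusted p 0.184) but did with library totals (-0.66, adjusted p 0.0461) and with the replicate block (-0.47, adjusted p 0.00833). SR-3420 without Dox gave 130, 87.1 and 133 CPM.

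The COUP-TF and other orphan receptor genes mostly did not pass. Nr2f2, of COUP-TFII (chromosome 7, 77496836 to 77511632, minus strand), a factor that restrains adipocyte differentiation, had 124, 119 and 213.5 CPM in DMSO and 73.4, 83.5 and 80.85 CPM with ISO in cells with Dox. The groups did not overlap, and Nr2f2 fell by 0.92 (SE 0.19, edgeR adjusted p 0.000549). Without Dox it had 149, 122 and 119 CPM in DMSO and 127.5, 109 and 123 with ISO, and SR-3420 gave 129, 128 and 195 CPM without and 128, 97.4 and 121 CPM with Dox. The difference between the ISO responses was -0.79 (adjusted p 0.129), which passed without a filter on low counts (-0.80, adjusted p 0.0326) and with the replicate block (-0.75, adjusted p 0.028). Nr2f1, Nr2f6, Nr2c1, Nr2c2 and Nr6a1 passed in none of the 8 contrasts, although the ISO and DMSO libraries of Nr2f6 with Dox did not overlap (27.5, 22.05 and 23.1 against 35.1, 28.1 and 32.6 CPM; -0.42, adjusted p 0.17). Of the steroid receptor genes, Nr3c1 had between 7.06 and 31.3 CPM and passed in no contrast; its ISO change with Dox was -0.24 (95% interval -0.94 to 0.47). Esr2 had between 384.5 and 574 CPM in the 18 libraries and passed in no comparison with DMSO, although with SR-3420 and Dox it passed as lower with library totals (-0.50, adjusted p 0.0361) and with the replicate block (-0.32, adjusted p 0.0374).

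ISO and SR-3420 were also compared with each other in cells with Dox. Between the stimuli 10 members differed, 5 higher with ISO and 5 lower (43.5%, against 19.8% of all genes, 10.4% higher and 9.43% lower), and 5 of them by at least 2-fold (6.85% of all genes). Without Rorb and Rxrg, whose testing depended on the group where each was high, 8 of 21 differed (38.1%, against 20% of the 9696 genes). Higher with ISO were Vdr (4.04, SE 0.21, edgeR adjusted p 3.23e-14), Rorb (2.33, SE 0.49, adjusted p 0.000917), Pparg (1.11, SE 0.16, adjusted p 7.34e-06), Esrra (1.1, SE 0.21, adjusted p 0.000302) and Esr2 (0.39, SE 0.13, adjusted p 0.0284). For Esr2, which had 574, 507 and 438 CPM in DMSO without and 478, 520.5 and 506 CPM in DMSO with Dox, the values were 474, 562 and 541 CPM with ISO and 411, 405 and 384.5 CPM with SR-3420. Lower with ISO were Nr1h3 (-0.63, adjusted p 0.000582), Thra (-0.73, adjusted p 0.0233), Rarg (-0.76, adjusted p 0.0221), Rxra (-0.81, adjusted p 0.0319) and Rxrg (-1.33, adjusted p 0.0394). Vdr, Rorb, Pparg, Esrra and Nr1h3 passed in every fit that left out 1 library. Without ISO with Dox replicate 2 only 6 members passed, and Thra (-0.48), Rarg (-0.73), Rxra (-0.69) and Esr2 (0.37) did not. Other libraries also decided single calls: ISO with Dox replicate 1 those of Rxra (-0.78) and Rxrg (-0.94), and replicate 3 those of Rarg (-0.56), Rxrg (-1.34) and Esr2 (0.39). SR-3420 with Dox replicate 1 decided those of Thra (-0.68) and Rarg (-0.50), replicate 2 those of Rxra (-0.51), Rxrg (-0.99) and Esr2 (0.42), and replicate 3 those of Thra (-0.65), Rxrg (-1.32) and Esr2 (0.37). With library totals Rxra (adjusted p 0.0538), Rxrg (0.0502), Rarg (0.0505) and Esr2 (0.0529) did not pass. Fitted on the contrast's own groups, Rarg (adjusted p 0.0575) and Esr2 (0.0658) did not, and with DESeq2 Rxrg did not (-1.36, adjusted p 0.0756). Ppara did not differ past the threshold (-0.63, 95% interval -1.45 to 0.20, adjusted p 0.29) but did without a filter on low counts (-0.60, adjusted p 0.0167) and with the replicate block (-0.63, adjusted p 0.011). Nr2f2, at -0.55 (adjusted p 0.0521), also passed in both of these alternatives (-0.52, adjusted p 0.0221 and -0.54, adjusted p 0.0107). Rara did not differ past the threshold (-0.15, 95% interval -0.55 to 0.25, adjusted p 0.64).

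Coregulators, the proteins that receptors recruit, were examined next, 18 of 19 listed genes having been tested. ISO raised 4 and lowered 2 without Dox, and raised 4 and lowered 4 with Dox. SR-3420 changed none without Dox and raised 6 and lowered none with Dox. Of all genes, 28% and 32.5% passed with ISO without and with Dox and 9.9% with SR-3420 and Dox. With ISO and Dox the smallest p-values were those of the thermogenic coactivators Ppargc1a (3.28, SE 0.29, edgeR adjusted p 4.62e-10), Ppargc1b (2.5, SE 0.26, adjusted p 1.63e-08) and Prdm16 (2.17, SE 0.24, adjusted p 5.89e-08) and of Ncoa1, which encodes SRC-1 (1.35, SE 0.19, adjusted p 1.62e-06). In CPM, Ppargc1a went from 43.7 ± 6.21 to 423 ± 168 and Ncoa1 from 38.5 ± 9.94 to 99.3 ± 19.9 (SD, n = 3). With SR-3420 and Dox they were Ppargc1b (1.98, SE 0.27, adjusted p 5.93e-06), Nrip1, which encodes the corepressor RIP140 (1.62, SE 0.35, adjusted p 0.00226), Ppargc1a (1.14, SE 0.31, adjusted p 0.0166) and the corepressor Ncor1 (0.44, SE 0.13, adjusted p 0.0224). Between the stimuli with Dox, 4 coregulators were higher and 4 lower with ISO, against 10.4% and 9.43% of all genes. The median over the list was -0.05 with ISO and Dox and 0.08 with SR-3420 and Dox, beside -0.02 and -0.02 for all genes.

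Enzymes and carriers that make, remove or move receptor ligands were tested for 14 of 28 listed genes. ISO raised 4 and lowered 1 without Dox and raised 6 and lowered 2 with Dox, and SR-3420 raised 3 in each state and lowered none, where the shares of all genes were 28%, 32.5%, 0.766% and 9.9%. With ISO and Dox the fatty acid elongation and steroid enzyme gene Hsd17b12 (1.94, SE 0.16, edgeR adjusted p 1.33e-10), the retinol carrier gene Rbp4 (1.5, SE 0.16, adjusted p 1.5e-08) and the fatty acid carrier genes Fabp4 (2.38, SE 0.27, adjusted p 6.52e-08) and Fabp5 (1.83, SE 0.22, adjusted p 2.42e-07) rose. SR-3420 with Dox raised Fabp4 (2.82, SE 0.27, adjusted p 1.79e-08), Hsd17b12 (1.53, SE 0.16, adjusted p 1.35e-07) and the retinal reductase gene Dhrs3 (1.09, SE 0.14, adjusted p 3.30e-06). Rbp4 had 1076 ± 246 CPM with ISO and Dox, 316 ± 16.2 with SR-3420 and Dox and 379 ± 37.6 in DMSO with Dox. The deiodinase gene Dio2 is listed at 0 in all 18 libraries. The median was 0.58 with ISO and Dox and 0.17 with SR-3420 and Dox.

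Target genes of the receptors were taken from textbook lists that share some genes. Higher with ISO were 14.5% of all genes without and 16.4% with Dox, and with SR-3420 0.698% and 6.53%. Of 14 PPAR targets tested (of 19), ISO raised 5 and lowered 2 without Dox and raised 11 and lowered none with Dox. SR-3420 raised 1 without Dox and 9 with Dox and lowered none. Of these genes, Ucp1 and Cyp4b1 reached the minimum count only through ISO libraries (means in the other groups of at most 2.13 and 5.63 CPM). Each could be tested only because it was high with ISO, and both are among those raised with ISO in each state. Ucp1, the uncoupling protein of brown fat, had 3 summed counts in DMSO with Dox and 829 with ISO, a ratio of 309 (95% counting interval 106 to 1500). With it the smallest p-values under ISO and Dox were those of the pyruvate dehydrogenase kinase gene Pdk4 (2.21, edgeR adjusted p 3.07e-08), Fabp4 and Cyp4b1 (4.32, adjusted p 1.43e-07), a cytochrome P450 gene with 5 summed counts in DMSO with Dox and 97 with ISO. Under SR-3420 and Dox they were Pdk4 (2.68, adjusted p 9.92e-09), Fabp4, the lipid droplet protein gene Plin2 (2.05, adjusted p 6.61e-07) and Hadha, of mitochondrial β-oxidation (0.81, adjusted p 0.00059). The list's median was 1.1 with ISO and Dox and 0.95 with SR-3420 and Dox. Estrogen-related receptor targets, all 9 tested, gave 5 higher with ISO without Dox, 7 with ISO and Dox and 3 with SR-3420 and Dox, and none lower in any of these. Cycs, of cytochrome c (2.25, adjusted p 4.07e-09), Idh3a, of the citric acid cycle (1.5, adjusted p 1.62e-07), and the medium-chain acyl-CoA dehydrogenase gene Acadm (0.96, adjusted p 1.62e-05) rose with ISO and Dox beside Pdk4. Without Dox neither Acadm (0.10, adjusted p 0.685) nor Pdk4 (0.45, adjusted p 0.229) passed with ISO. Between the stimuli with Dox 6 of the 9 were higher with ISO and none lower, against 10.4% and 9.43% of all genes. With SR-3420 and Dox the 3 were Pdk4, Idh3a (0.91, adjusted p 0.0009) and Acadm (0.61, adjusted p 0.00872). Esrra itself is on this list.

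**Figure D4:**
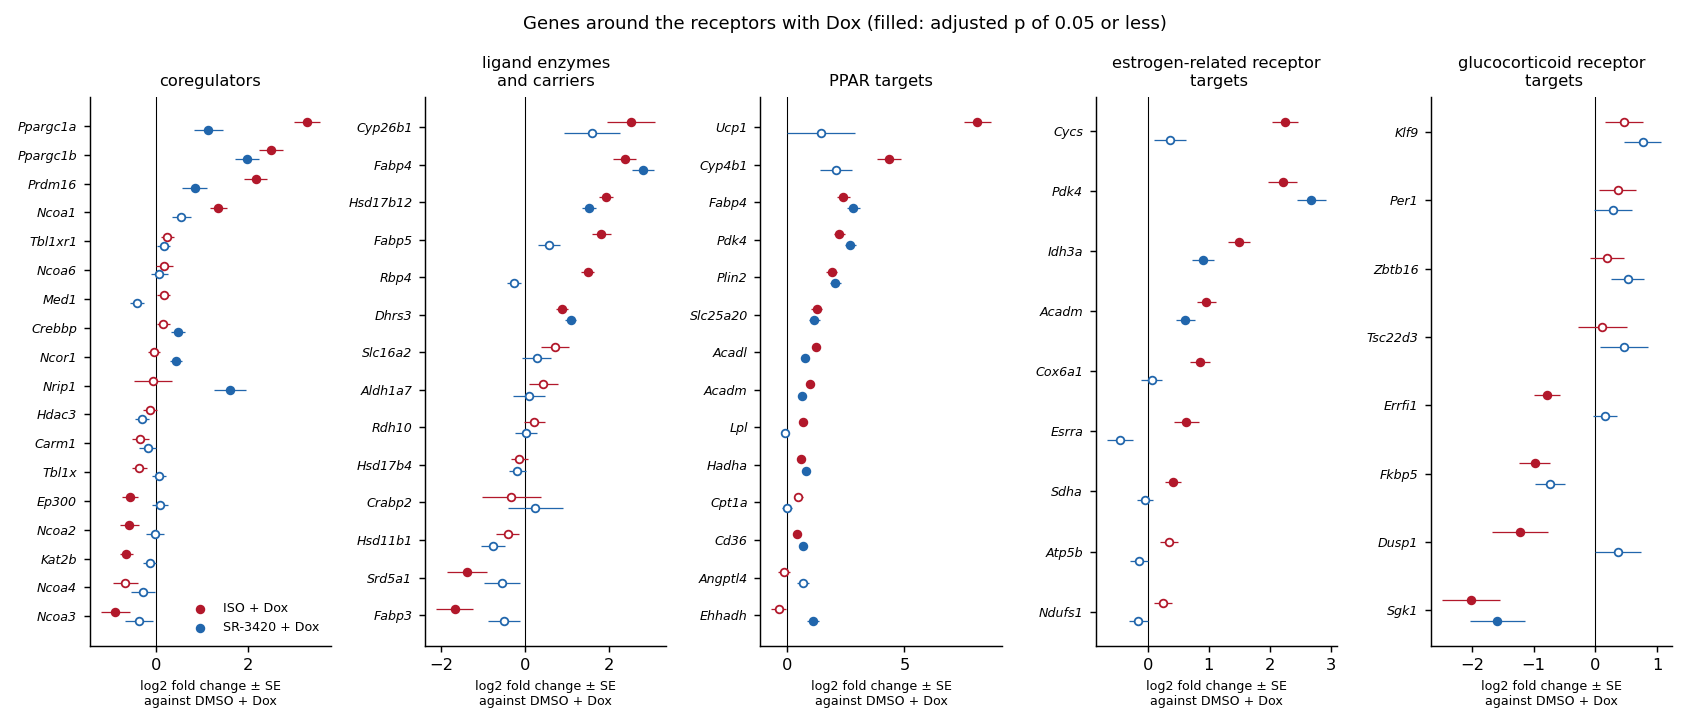
Log2 fold change against DMSO with Dox of the tested genes of 5 lists, for ISO (red) and SR-3420 (blue) in cells with Dox (bars are SE; filled points pass an adjusted p of 0.05). The PPAR targets Fabp4, Pdk4 and Plin2 lie to the right for both stimuli, while Ppargc1a, Rbp4 and Cycs lie further right for ISO.

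The other receptors' targets gave smaller counts. Of all genes 14.5% were higher and 13.5% lower with ISO without Dox, 16.4% higher and 16.1% lower with ISO and Dox, and 6.53% higher and 3.37% lower with SR-3420 and Dox. Of 8 LXR targets tested (of 9), ISO raised 3 and lowered 2 in each state, and with Dox SR-3420 raised 2 and lowered 1. With ISO and Dox these were the sterol transporter gene Abcg1 (1.02, edgeR adjusted p 1.08e-06), the stearoyl-CoA desaturase gene Scd1 (1.53, adjusted p 5.54e-06), Mylip (-1.38, adjusted p 3.51e-05), whose product degrades the LDL receptor, Apoe (-1.08, adjusted p 0.000267) and Lpcat3. With SR-3420 and Dox they were Abcg1 (0.73, adjusted p 0.000561), Lpcat3 (0.66, adjusted p 0.00251) and Mylip (-0.95, adjusted p 0.0058). Of 6 vitamin D receptor targets 2 were tested, none rose in any comparison with DMSO, and Cbs fell with ISO in both states (-1.91, adjusted p 0.000678 without and -1.06, adjusted p 0.0167 with Dox). Cyp24a1, the classical vitamin D target, had too few counts to test. Of 5 thyroid hormone receptor targets tested (of 6), Ucp1, tested only because it was high with ISO, rose with ISO in both states. The lipogenic gene Thrsp fell with ISO without Dox (-2.67, adjusted p 8.67e-05) and rose with SR-3420 and Dox (1.42, adjusted p 0.00388). Of 5 retinoic acid receptor targets tested (of 8), which include Rarb, ISO raised 2 and lowered 1 without Dox and raised 2 with Dox, and SR-3420 raised 1 without and 2 with Dox. With ISO and Dox these were Dhrs3 (0.88, adjusted p 1.64e-05) and Cyp26b1, a retinoic acid-degrading enzyme (2.54, adjusted p 0.00113; 10 summed counts in DMSO and 54 with ISO). Cyp26b1 would have missed the minimum count without the ISO libraries (means in the other groups of at most 8.02 CPM). On every list that holds it, Cyp26b1 could thus be tested only because it was high with ISO. With SR-3420 and Dox the genes raised on this list were Dhrs3 and Tgm2 (0.66, adjusted p 0.0181). Of 8 glucocorticoid receptor targets tested (of 10), ISO lowered 1 without Dox, Errfi1, and 4 with Dox, Sgk1 (-2.02, adjusted p 0.00134), Fkbp5 (-0.98, adjusted p 0.00262), Errfi1 (-0.78, adjusted p 0.00419) and Dusp1 (-1.22, adjusted p 0.0366). SR-3420 with Dox lowered Sgk1 (-1.59, adjusted p 0.0213), and no gene of this list rose. For reference, of the relatives left out of the family 5 of 6 were tested, and Nr4a1 (1.59, adjusted p 4.62e-06), Nr4a2 (1.83, adjusted p 0.00479) and Nr4a3 rose with ISO in both states and passed in neither SR-3420 comparison. Nr4a3 had 1 summed count in DMSO with Dox and 68 with ISO, a ratio of 76.1 (95% counting interval 13.2 to 3050). Nr4a2 and Nr4a3 reached the minimum count only through ISO libraries (means in the other groups of at most 4.40 and 1.62 CPM). Both could thus be tested only because they were high with ISO.

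Markers of cell type moved with some groups, and their part in these results was not tested. Summed adipocyte markers had 3004 to 3497 CPM in DMSO with Dox, 5569 to 5652 CPM with ISO and 4226 to 5585 CPM with SR-3420 and Dox, and 8 and 5 of the 8 tested genes passed as higher, against 16.4% and 6.53% of all genes, and Fabp4, Ucp1 and Lpl are also on the lists above. Without Dox they had 2470 to 3023 CPM in DMSO, 3349 to 3535 with ISO and 3794 to 3965 with SR-3420, where 2 genes passed as higher and 1 as lower with ISO and 3 as higher with SR-3420, against 14.5%, 13.5% and 0.698% of all genes. Summed preadipocyte and fibroblast markers had 774 to 1177 CPM in DMSO with Dox, 509 to 782 with ISO and 679 to 881 with SR-3420, and without Dox 699 to 927, 551 to 677 and 682 to 870 CPM in the same order. Of their 5 tested genes, 2 fell with ISO and Dox (Pdgfrb and Col1a1), against 16.1% of all genes. With ISO without Dox Pdgfrb fell and Ly6a rose, against 13.5% of all genes lower and 14.5% higher. Ly6a, and Ucp1 among the adipocyte markers, would have missed the minimum count without the ISO libraries. Summed macrophage markers stayed between 6.01 and 19.3 CPM, with 4 of the 5 in the table at 10 counts or fewer in every library, and summed skeletal muscle markers between 14.1 and 37.7 CPM, with Myod1 and Myog at 0. In bulk RNA, fewer cells of a type and less RNA per cell cannot be told apart.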

How the data were processed

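RNA of 18 cell cultures (6 groups, 3 replicates) was sequenced. The authors deposited raw whole-number read counts per gene, made by aligning reads to mm9 with STAR 2.4.2a, allowing 1 read per position and read length with HOMER, and counting with iRNA-seq under its gene option. On a log10 scale the counted length followed intron length more closely (Pearson's r 0.980) than exon length (0.551), across 16439 genes, which are not independent replicates. This differs from the stated option, while the rise of Abhd5 with Dox goes against intron reads alone, and the share of intron reads was not settled; strand use in counting is not given in the sources used here. All 18 value columns were mapped to samples by title.

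Counts were fitted with edgeR 4.0.16 (R 4.3.3, TMM factors, filterByExpr, quasi-likelihood F-test, two-sided) with 1 mean per group over all 18 libraries, with Benjamini-Hochberg adjustment across the 10178 genes tested in each of 8 contrasts. A gene passed at an adjusted p of 0.05 with no limit on fold change. Intervals of fold changes are 95% per gene and not adjusted; intervals of count ratios are exact and cover counting error only. Totals were 689910 to 1956565 counts (median 1145729). The coefficient of biological variation was 0.133. On data simulated for the ISO response with Dox (9939 genes), 79.0% of genes changed by 2-fold and 93.9% of those changed by 3-fold were recovered, with 0.0411% false calls. The simulation set 200 genes to change, equally up and down, and held no effect shared by replicate number. In the data 32.5% of genes passed in this contrast, so these rates need not hold there. Other size factors, filters, DESeq2 1.42.0, limma-voom (limma 3.58.1), a replicate block, fits of the contrast's groups alone and fits without each library were alternatives.

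Members, lists and tests were chosen with earlier results of these data known. Some list genes are not reported here and were left out of the lists' counts. Every passing member and Vdr and Ppara were given by library, and from each list up to 4 passing genes with the smallest p per stimulus with Dox. Promoter windows were read from the mm9 genome at the deposited gene starts. Copies of other genes were sought by matching coding sequences to members (at least 80% of 200 or more bases at 90% identity).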

Additional observations from a re-analysis of the deposited data

Results flagged for a closer look

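The genes below responded differently to a stimulus with and without Dox by the interaction term of the edgeR fit (log2 difference of the responses, with Dox minus without). Among the nuclear receptors these were Nr1h3 at 1.0 (adjusted p 0.00322) and Rara at -0.94 (adjusted p 0.0432) under ISO. Nr1h3 passed in all 20 alternatives, whereas Rara was lost in 12 of 20, including 9 of the 12 fits that left out 1 library. Of all genes, 2.18% passed for this difference under ISO and 0.757% under SR-3420. Of the coregulator genes the difference under ISO was 1.19 for Ncoa1 (adjusted p 0.0193). Among the enzymes and carriers of ligands it was 2.04 for Dhrs3 (adjusted p 4.62e-06), which fell by 1.16 without Dox and rose by 0.88 with Dox, 1.24 for Hsd17b12 (adjusted p 0.00317) and 1.92 for Fabp4 (adjusted p 0.0251). Among the PPAR targets it was 1.76 for Pdk4 (adjusted p 0.00616), 0.96 for Acadl (adjusted p 0.0228) and 0.86 for Acadm (adjusted p 0.0298). Under SR-3420 the difference for Pdk4 was 1.98 (adjusted p 0.00639).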

How the results depend on the processing

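For the 14 members that passed in at least 1 contrast, of 36 pairs of a member and a contrast that passed, 22 passed under every alternative, and of 76 that did not pass, 13 passed under some; no passing call changed sign, while some fold changes near 0 that did not pass did. Requiring at least 2-fold left 5 members for ISO without Dox, 6 for ISO with Dox, 2 for SR-3420 with Dox, 0 for Dox, 1 for the difference between ISO responses and 5 for ISO against SR-3420, as that limit removes small changes. The shares of all genes were 10.9%, 13.1%, 3.1%, 0.894%, 1.31% and 6.85% in the same order. Library totals in place of TMM gave 0 members for Dox, 1 for the difference between ISO responses and 6 for ISO against SR-3420 (0.963%, 1.28% and 16.4% of all genes). Without a filter on low counts 36 members were tested, with 1 passing for SR-3420 without Dox, 4 for the difference between ISO responses and 2 for that between SR-3420 responses (0.983%, 2.24% and 0.977% of all genes). A minimum of 10 counts in every library tested 17 members and left 3 for SR-3420 with Dox (12.4% of all genes), and 1 CPM in 3 libraries would have tested 32. The difference between ISO responses was 1 with limma-voom (1.9% of all genes) and 1 when fitted on its own groups (1.98%). The causes were not tested. Leaving out 1 library gave 3 to 5 members for SR-3420 with Dox, 0 to 1 for Dox, 1 to 2 for the difference between ISO responses and 6 to 8 for ISO against SR-3420. The labels do not say that replicate numbers pair the samples, and in the data 36 of 45 same-numbered pairs of libraries deviated together at r above 0.1, and 18 of 18 libraries correlated best with their own number, which hints at shared experiments. All same-numbered pairs exceeded 0.1 for the libraries of ISO with Dox and of SR-3420 in either state against their DMSO, and 9 of the 45 did not. Same-numbered pairs had r from 0.0386 to 0.277 (median 0.149), against a median of -0.07 for the mean r to other numbers. The main fit has no block, so the calls that differ with a block depend on that choice. A replicate block gave 2 members for SR-3420 without Dox, 4 for the difference between ISO responses and 3 for that between SR-3420 responses, and it removed no call. It also raised the shares of all genes, to 2.34%, 5.9% and 3.33%, from 0.766%, 2.18% and 0.757% in the main fit. Depth limits the result for the 15 untested members and for Rorb and Rxrg.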
